A study of Homo sapiens with 6 samples.

Results

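RNA polymerases, the Mediator complex and the general transcription factors carry out and start the synthesis of cellular RNA. The genes described here are the 78 of 7682 in the study's expression table whose symbols begin with POLR1, POLR2 or POLR3, with MED, GTF2 or GTF3 and a number, or with TAF and a number. They comprise 24 polymerase genes, 20 Mediator genes, 20 general transcription factor (GTF) genes and 14 TATA-binding protein-associated factor (TAF) genes. The rule used gene names only and no measured value, but the set was chosen with earlier results of these data known. Some symbols cover genes outside the core machinery: TAF15 encodes an RNA-binding protein of the FET family that was found with TFIID but is not one of its core subunits, and GTF2I and GTF2IRD1 belong to the TFII-I family.

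As background, RNA polymerase I makes ribosomal RNA, polymerase II makes mRNA and polymerase III makes transfer RNA, 5S ribosomal RNA and other small RNAs, and several small subunits are shared between them. TFIID, built from the TATA-binding protein and TAFs, recognises the core promoter with TFIIA, and TFIIB, TFIIE, TFIIF and TFIIH bring in polymerase II and open the DNA. Mediator, with its head, middle, tail and kinase modules, connects DNA-bound activators to polymerase II, while TFIIIA and TFIIIC serve polymerase III and the SL1 complex serves polymerase I.

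The cells were HEK293, a human embryonic kidney line. They received MOV10 siRNA or a mock transfection, and in both conditions new RNA was labelled with 700 µM 4-thiouridine for 60 min. MOV10 is an RNA helicase, and the study asked how its loss changes mRNA half-lives. Poly(A)+ RNA was sequenced from total RNA, from the labelled RNA and from the unlabelled flow-through, each in 2 columns a condition, called replicates 1 and 2 in the header. GEO lists 6 samples, 1 per fraction and condition, and nothing in the sources used here says that the columns came from separate cultures, so p-values measure only the spread between these columns, which may be technical. The reference cells were mock transfected and no control siRNA was analysed here, so loss of MOV10 and other effects of its siRNA cannot be told apart. In bulk RNA, fewer cells expressing a gene and less RNA per cell cannot be told apart either.

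MOV10 itself had total RNA values of 3.53 and 3.64 in the siRNA columns and 13.1 and 14.6 in the mock columns. NEFL, ENO2 and VIM, genes reported in this cell line, were in the table, and 0 of 10 marker genes of blood, liver, fibroblast, endothelium, squamous epithelium and astrocytes were among the genes analysed. The authors' normalised expression values are on a scale the header does not name, none was below 1.00, and the read depth behind them is unknown, so levels are compared between columns and never between genes. Changes are given for 6064 genes whose total RNA averaged at least 5 in each condition. Of the 78 genes, 75 passed that minimum. TAF5, MED19 and GTF2E1, a TFIID subunit, a Mediator head subunit and the large TFIIE subunit, lay below it, with mean half-lives in mock cells of 231, 222 and 201 min. All log2 changes are siRNA minus mock and relative to the median gene of each column. Before that centring the median gene lay at 0.20 in half-life, -0.01 in total RNA, 0.14 in labelled RNA and 0.02 in flow-through RNA.

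How stable are the mRNAs of this machinery? In mock cells their half-lives, as the authors computed them, centred near those of other genes. The range was wide inside Mediator (68.6 to 2739 min), and also inside TFIID (253 to 2409 min) and TFIIH (585 to 2685 min). The 2 TFIIF genes lay close together (778 to 890 min). The median over the 75 genes was 880 min in siRNA columns and 765 min in mock columns, against 900 and 777 min over all 6064 genes. Polymerase genes had a median of 916 min after siRNA and 809 min in mock, GTF genes 901 and 781 min, TAF genes 867 and 760 min, and Mediator genes 671 and 592 min. Thus 13 of the 19 Mediator genes lay below the median gene in mock cells, against 12 of 24 polymerase genes, 8 of 19 GTF genes and 7 of 13 TAF genes. Genes of a class share the same libraries and are not replicates, so these medians are descriptions. In mock columns the interquartile range of the 75 genes lay between 501 and 1096 min, against 451 and 1208 min for all genes.

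**Figure D1:**
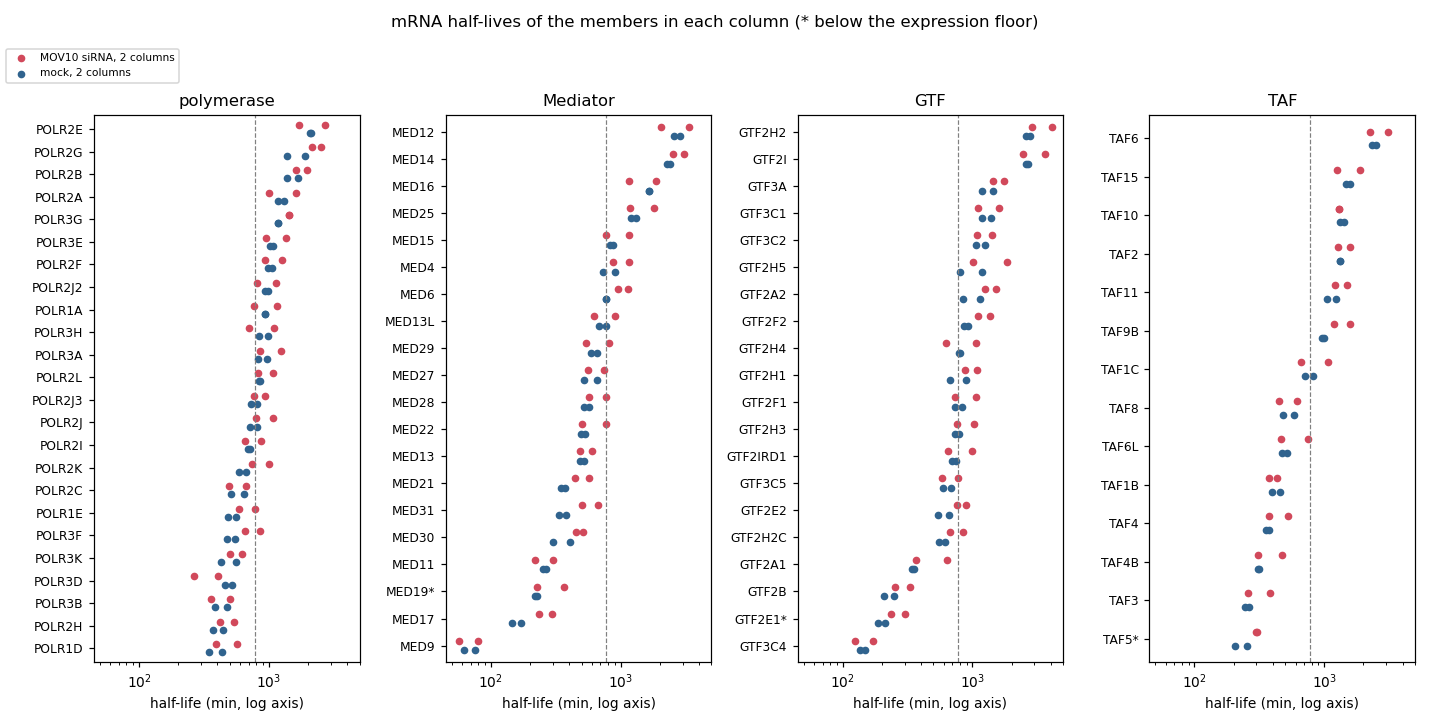
Half-life in minutes (log axis) of each of the 78 genes, by class, with the MOV10 siRNA columns in red above the mock columns in blue, 2 columns each. The dashed line is the mock median of all 6064 genes (777 min), and an asterisk marks a gene below the expression minimum. Polymerase genes spanned 392 to 2107 min in mock and Mediator genes 68.6 to 2739 min.

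The shortest half-lives belonged to subunits of Mediator and TFIIIC. MED9, a small subunit of the Mediator middle module, was at 57.3 and 79.8 min in the siRNA columns and 61.7 and 75.5 min in the mock columns, within the shortest 0.808% of genes in mock. GTF3C4, a TFIIIC subunit, was at 124 and 172 min after siRNA and 137 and 148 min in mock. MED17, a central subunit of the head module, was at 233 and 298 min after siRNA and 145 and 171 min in mock. The conditions overlapped for MED9 and GTF3C4 and did not overlap for MED17. GTF2B, the gene of TFIIB, followed at 253 and 327 min after siRNA and 208 and 250 min in mock.

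The longest half-lives belonged to genes of Mediator, TFIIH and the TFII-I family. MED12, which activates the Mediator kinase, was at 2032 and 3374 min after siRNA and 2886 and 2592 min in mock. GTF2H2, a TFIIH core subunit, was at 2861 and 4113 min after siRNA and 2599 and 2772 min in mock. GTF2I, a multifunctional factor named TFII-I, was at 2463 and 3631 min after siRNA and 2577 and 2654 min in mock. The siRNA columns of these genes stood far apart, replicate 2 being the higher, as it was for the median gene (764 and 1030 min in the siRNA columns). In recomputed half-lives the median gene had the other order (985 and 903 min). GTF2H2 and GTF2H2C are near-identical copies, as are POLR2J, POLR2J2 and POLR2J3, and reads shared within each set may have been divided between them, so their separate values are uncertain.

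Within Mediator the tail and scaffold genes lay above the head and middle genes, and the kinase module overlapped both. The 3 tail genes MED15, MED16 and MED25 lay between 851 and 1648 min in mock cells, and the scaffold gene MED14, which joins head, middle and tail, at 2345 min. The 8 head genes lay between 158 and 771 min and the 4 middle genes between 68.6 and 821 min. The kinase module paralogues MED13 and MED13L, which tie the kinase to the core, were at 505 and 724 min, and MED12 of the same module at 2739 min. In TFIID the range was 253 min for TAF3, a reader of promoter chromatin, to 2409 min for the histone-fold subunit TAF6. Of the large polymerase subunits, POLR2A and POLR2B, which form the active centre of polymerase II, were at 1246 and 1532 min. POLR1A, the largest subunit of polymerase I, was at 933 min, and POLR3A and POLR3B, the large subunits of polymerase III, at 899 and 430 min. These are mock means of 2 columns, and the order was not tested.

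Which half-lives changed when MOV10 was depleted? The Mediator genes MED17 and MED31 became longer lived relative to the median gene and the polymerase III gene POLR3D shorter lived. These were 2 of 75 genes longer and 1 of 75 shorter (limma, Benjamini-Hochberg adjusted p under 0.05 over all genes), while 1.88% of all genes were called longer and 4.27% shorter. At an unadjusted 0.05, 8 of the 75 genes were longer and 3 shorter, against 11.6% and 12.7% of all genes. By complex, changes were between 0.15 and 0.30 for 4 of the 6 TFIIH genes, the copies GTF2H2 and GTF2H2C among them. GTF2H3 changed by 0.03, GTF2H4 by -0.16, and the 4 TFIIIC genes by -0.16 to -0.09. None of these passed the test. The median change was 0.02 over Mediator genes, 0.10 over GTF genes, -0.04 over polymerase genes and -0.04 over TAF genes, against 0.00 over all genes.

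POLR3D, which with POLR3E forms a subunit pair of polymerase III that acts in initiation and termination, had half-lives of 266 and 408 min in the siRNA columns and 457 and 521 min in the mock columns. The conditions did not overlap, with the siRNA columns the lower. The log2 change was -0.76 with a standard error of 0.10, a half-life 1.69 times shorter relative to the median gene (adjusted p = 0.011 by limma with the Benjamini-Hochberg method). The partner POLR3E was at 961 and 1346 min after siRNA and 1030 and 1077 min in mock (log2 change -0.08, limma adjusted p = 0.605). Without mock replicate 1 the change of POLR3D was -0.79 (limma adjusted p = 0.0635) and without mock replicate 2 it was -0.73 (limma adjusted p = 0.0633), neither past the threshold.

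MED17 had, as given above, half-lives in siRNA columns that lay entirely over those in mock columns, 1.46-fold longer relative to the median gene (0.55 ± 0.10 log2, SE; adjusted p = 0.0269 by limma with Benjamini-Hochberg). MED31, a small subunit of the middle module, was at 502 and 676 min after siRNA and 335 and 383 min in mock, also without overlap. That is 1.42-fold longer relative to the median gene (0.51 ± 0.09 log2, SE; adjusted p = 0.0248 by limma with Benjamini-Hochberg). MED17 missed the threshold without mock replicate 1, mock replicate 2 or siRNA replicate 1 (0.49, 0.61 and 0.51), and MED31 without any 1 of the 4 columns (0.47 to 0.54). Both calls were also lost with the replicate number as a block (limma adjusted p = 0.0753 for MED17 and 0.0668 for MED31), that of MED17 without an expression minimum (0.0501) and that of MED31 in recomputed half-lives (0.0741). Without centring on the median gene the changes were 0.74 for MED17, 0.70 for MED31 and -0.56 for POLR3D, and none passed (limma adjusted p = 0.839, 0.864 and 0.891). The next polymerase III gene by size of change, POLR3F, was at 656 and 850 min after siRNA and 476 and 545 min in mock (0.36, limma adjusted p = 0.0641).

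The large polymerase subunits, the Mediator scaffold MED14, the kinase module genes MED12, MED13 and MED13L, and GTF2B did not pass in half-life. The changes were -0.17 for POLR2A, 0.03 for POLR2B, -0.18 for POLR1A, 0.00 for POLR3A and -0.20 for POLR3B. They were 0.05 for MED14, -0.26 for MED12, -0.09 for MED13, -0.13 for MED13L and 0.14 for GTF2B, with limma adjusted p from 0.261 for POLR3B to 0.984 for POLR3A. POLR1B and TAF1 were not analysed here.

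**Figure D2:**
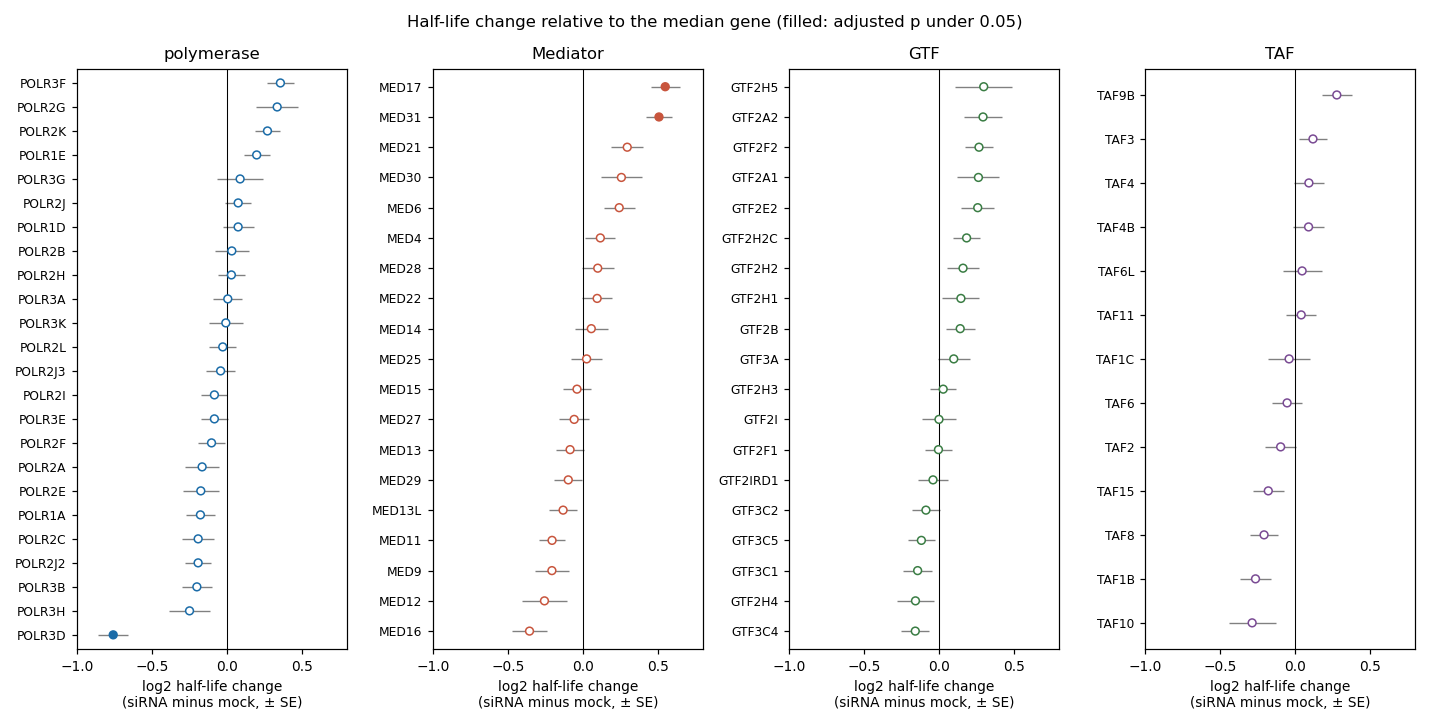
Log2 half-life change (siRNA minus mock, relative to the median gene) of the 75 genes past the expression minimum, by class and sorted by size, with the standard error of limma as bars. Filled points are the genes called: POLR3D at -0.76, MED17 at 0.55 and MED31 at 0.51.

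Which mRNAs changed in abundance? In total RNA, 3 of the 6 TFIIH genes rose, among them the near-identical copies GTF2H2 and GTF2H2C, as did the TFIIE gene GTF2E2. Genes that fell included 3 of the 8 polymerase III genes and 4 of the 13 TAF genes. Of the 75 genes 8 rose (10.7%; 12.9% of all genes) and 11 fell (14.7%; 14.3% of all genes), both near the share of all genes (limma, Benjamini-Hochberg adjusted p under 0.05). With quantile normalisation in place of median centring 9 rose and 8 fell, against 820 and 774 of all 6064 genes. Of the 19 GTF genes 4 rose and 0 fell, and at an unadjusted 0.05 8 were higher and 1 lower, against 20% and 19.3% of all genes. The TFIIH and GTF counts include both GTF2H2 and GTF2H2C, so reads shared by these copies may make 1 signal count as 2. Of the 24 polymerase genes 1 rose and 5 fell, of the 19 Mediator genes 2 rose and 2 fell, and 1 of the TAF genes rose.

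POLR3D fell furthest. Its total RNA was 16.6 and 16.4 in the siRNA columns and 27.2 and 30.0 in the mock columns, 16.5 ± 0.145 and 28.6 ± 1.95 (SD, n = 2 columns each). The siRNA values were close together and well under both mock values, a change of -0.74 (SE 0.07, limma, Benjamini-Hochberg adjusted p = 1.11e-05). Other polymerase genes that fell were POLR2J2 (-0.28), POLR3E (-0.24), POLR2I (-0.22), a polymerase II subunit for RNA cleavage and proofreading, and POLR3K (-0.19), its counterpart in polymerase III. The calls of POLR3E, POLR2I and POLR3K were each lost without mock replicate 2, siRNA replicate 1 or siRNA replicate 2, and that of POLR2J2 without mock replicate 2 or siRNA replicate 1. POLR2B rose by 0.20, with 46.5 and 45.9 in siRNA columns and 40.7 and 40.4 in mock columns (limma adjusted p = 0.0432). The POLR2B call was lost without mock replicate 2, siRNA replicate 1 or siRNA replicate 2 (0.16 to 0.20).

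TAF15 was at 92.7 and 87.0 after siRNA and at 134 and 137 in mock (-0.57, SE 0.06, limma, Benjamini-Hochberg adjusted p = 2.05e-05). MED16, a tail subunit, was at 9.13 and 9.36 after siRNA and at 11.8 and 15.3 in mock (-0.47, SE 0.10, limma adjusted p = 0.00266). For MED16 the mock columns were far apart, but both lay over the siRNA columns. TAF10, a histone-fold subunit of both TFIID and the SAGA coactivator, was at 37.0 and 37.1 after siRNA and 44.9 and 54.1 in mock (-0.38, limma adjusted p = 0.00225). TAF1B of SL1 (-0.39), TAF8 of TFIID (-0.37) and MED12 (-0.27) fell as well. The TAF1B call was lost without mock replicate 1, mock replicate 2 or siRNA replicate 2, and the TAF8 call without mock replicate 2 or siRNA replicate 2. MED12 was at 8.54 and 8.67 after siRNA and 9.99 and 11.6 in mock (limma adjusted p = 0.0299), and its call was lost without mock replicate 2, siRNA replicate 1 or siRNA replicate 2 (-0.29 to -0.22).

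MED17 rose most. It was at 10.4 and 9.36 in siRNA columns and 6.91 and 6.55 in mock columns, 1.46-fold higher by the ratio of means (0.51 ± 0.09 log2, SE; adjusted p = 0.00127 by limma with Benjamini-Hochberg). GTF2H2 was at 57.9 and 54.8 after siRNA and 45.7 and 45.9 in mock (0.31), and its copy GTF2H2C at 50.5 and 47.3 after siRNA and 39.7 and 39.0 in mock (0.33). Both of these calls were lost without siRNA replicate 1 (0.28 and 0.29). GTF2E2, the small TFIIE subunit, was at 17.9 and 16.9 after siRNA and 14.5 and 14.8 in mock (0.26, limma adjusted p = 0.0249), and its call was lost without mock replicate 2, siRNA replicate 1 or siRNA replicate 2 (0.23 to 0.29). The TFIIH subunit GTF2H1 (0.28), the TFIID subunit TAF4 (0.29) and the head subunit MED28 (0.30) also rose. Their calls were lost without siRNA replicate 1, that of GTF2H1 also without mock replicate 2 or siRNA replicate 2, that of TAF4 without mock replicate 1 or siRNA replicate 2, and that of MED28 without mock replicate 2. POLR3D, TAF15, MED16, MED17 and TAF10 stayed past the threshold whichever column was left out.

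**Figure D3:**
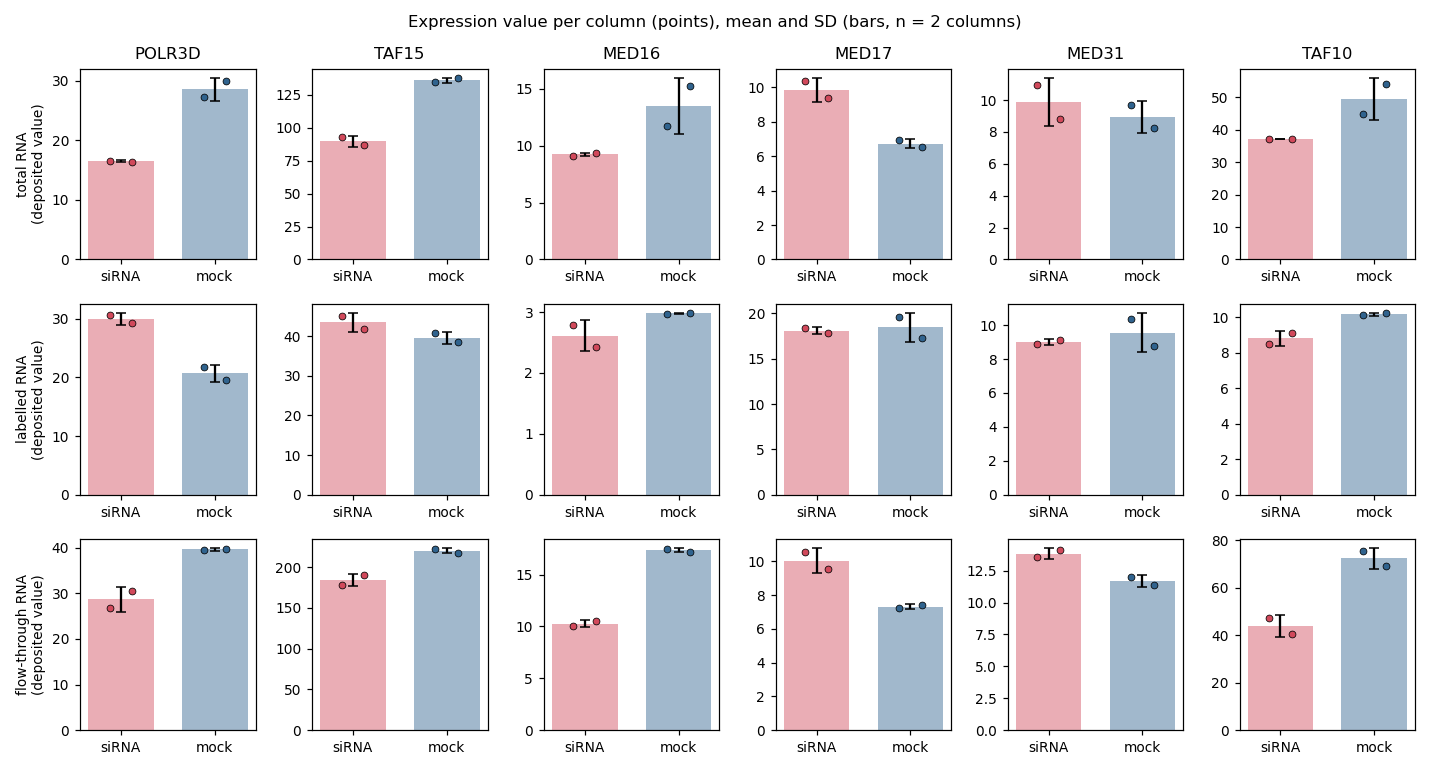
Deposited expression values of POLR3D, TAF15, MED16, MED17, MED31 and TAF10 in total RNA (top), labelled RNA (middle) and flow-through RNA (bottom). Points are columns and bars are means with the SD (n = 2 columns), with MOV10 siRNA on the left and mock on the right of each panel. POLR3D was higher after siRNA in labelled RNA (30.0 against 20.7) and lower in total RNA (16.5 against 28.6).

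Labelled RNA holds transcripts made within the labelling hour. The shared polymerase subunits POLR2F and POLR2H rose in it, together with POLR3D. Of the 75 genes 6 rose (8%; 9.88% of all genes) and 6 fell (8%; 11.5% of all genes) by the same test. Without centring, 27 rose and 0 fell, against 1641 and 333 of all 6064 genes. The median gene itself lay 0.14 higher after siRNA, so these directions hold relative to the median gene. POLR2F, a subunit of every nuclear RNA polymerase, was at 58.8 and 59.4 after siRNA and 42.2 and 38.5 in mock (0.40, SE 0.08, limma, Benjamini-Hochberg adjusted p = 0.00481). POLR3D was at 30.7 and 29.3 after siRNA and 21.8 and 19.6 in mock (0.38, SE 0.08, limma adjusted p = 0.00752). Neither gene's columns overlapped. MED11 of the Mediator head was at 25.7 and 22.5 after siRNA and 18.9 and 14.7 in mock (0.37, limma adjusted p = 0.0257), a call lost without mock replicate 2 (0.24) or siRNA replicate 1 (0.26). The shared subunit POLR2H (0.33), GTF2E2 (0.32) and TAF3 (0.31) rose too, and GTF2E2 missed the threshold without mock replicate 2 (0.21) or siRNA replicate 2 (0.28). POLR2H and TAF3 missed it without mock replicate 2 or siRNA replicate 1.

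Of the genes with less labelled RNA, TAF9B, a paralogue of the histone-fold subunit TAF9, was at 8.94 and 9.75 after siRNA and 11.2 and 11.3 in mock (-0.38, limma, Benjamini-Hochberg adjusted p = 0.00989). POLR2J3 was at 19.3 and 17.4 after siRNA and 21.6 and 22.1 in mock (-0.38, limma adjusted p = 0.0114). GTF2H5, the smallest TFIIH subunit, was at 27.2 and 23.8 after siRNA and 34.1 and 26.4 in mock (-0.37, limma adjusted p = 0.0269). The deposited columns of GTF2H5 overlapped and separated only after centring. TAF10 (-0.32), POLR2I (-0.26) and MED21 (-0.26) fell as well. Calls were lost for TAF9B without mock replicate 2 (-0.33), for POLR2J3 without siRNA replicate 2 (-0.30), for GTF2H5 without mock replicate 1 (-0.23) or siRNA replicate 2 (-0.26), and for TAF10 without mock replicate 2 (-0.27) or siRNA replicate 1 (-0.29). The POLR2I call was lost without mock replicate 1, mock replicate 2 or siRNA replicate 2, and the MED21 call without mock replicate 2, siRNA replicate 1 or siRNA replicate 2.

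Flow-through RNA, the older unlabelled transcripts, changed in most of these genes as it did across the table. Of the 75 genes 25 rose (33.3%; 31.7% of all genes) and 16 fell (21.3%; 26.8% of all genes). The GTF genes leaned upward, with 9 of 19 risen and 1, GTF2H3 of TFIIH (-0.21), fallen. The copies GTF2H2 and GTF2H2C, which may share reads, are both among the 9. TAF genes gave 3 risen and 5 fallen of 13, polymerase genes 8 and 6 of 24, and Mediator genes 5 and 4 of 19. The fallen polymerase genes include both copies POLR2J2 and POLR2J3. GTF2E2 was at 30.0 and 28.9 after siRNA and 20.6 and 19.4 in mock (0.56, SE 0.05, limma, Benjamini-Hochberg adjusted p = 0.00057). GTF2A1, the large TFIIA subunit, was at 13.5 and 18.3 after siRNA and 10.9 and 11.1 in mock (0.50, SE 0.13, limma adjusted p = 0.0187). Its siRNA columns were far apart, and without siRNA replicate 2 the change was 0.29; without mock replicate 1 the call was lost (0.47).

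TAF10 fell most in flow-through RNA, at 47.1 and 40.5 after siRNA and 75.3 and 69.3 in mock (-0.70, SE 0.08, limma, Benjamini-Hochberg adjusted p = 0.00109). MED16 was at 10.0 and 10.5 after siRNA and 17.5 and 17.2 in mock (-0.69, SE 0.06, limma adjusted p = 0.000364). The siRNA columns of both genes lay far under the mock columns. POLR2J3 fell by 0.48, POLR3D by 0.44 and POLR2I by 0.42 on the log2 scale. POLR2A was at 85.8 and 92.3 after siRNA and 85.1 and 89.2 in mock, and did not pass (0.05, limma adjusted p = 0.454). POLR1A rose by 0.20, a call lost whichever column was left out (0.19 to 0.21), and POLR3A rose by 0.30.

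Labelled and flow-through RNA moved in opposite directions in a single gene that passed both tests, POLR3D, up in labelled and down in flow-through RNA. In 4 genes both rose (GTF2E2, POLR2F, POLR2H and TAF3), in 3 both fell (POLR2I, POLR2J3 and TAF10), and 0 genes showed less labelled with more flow-through RNA. MED17 and MED31, the genes with longer half-lives, had labelled changes of -0.16 and -0.21 (limma adjusted p = 0.170 and 0.0996) and rose in flow-through RNA by 0.42 and 0.24. The MED31 call in flow-through RNA was lost without mock replicate 2 (0.21). Half-lives were computed by the authors from these fractions, so the fractions and the half-lives are not independent of each other. Total RNA of POLR3D (-0.74) fell further than either fraction. So did that of TAF15 (-0.57), which changed by -0.01 in labelled and -0.24 in flow-through RNA. Total RNA of MED17 (0.51) rose further than either of its fractions, while that of TAF10 (-0.38) lay between its fractions. The cause was not tested.

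**Figure D4:**
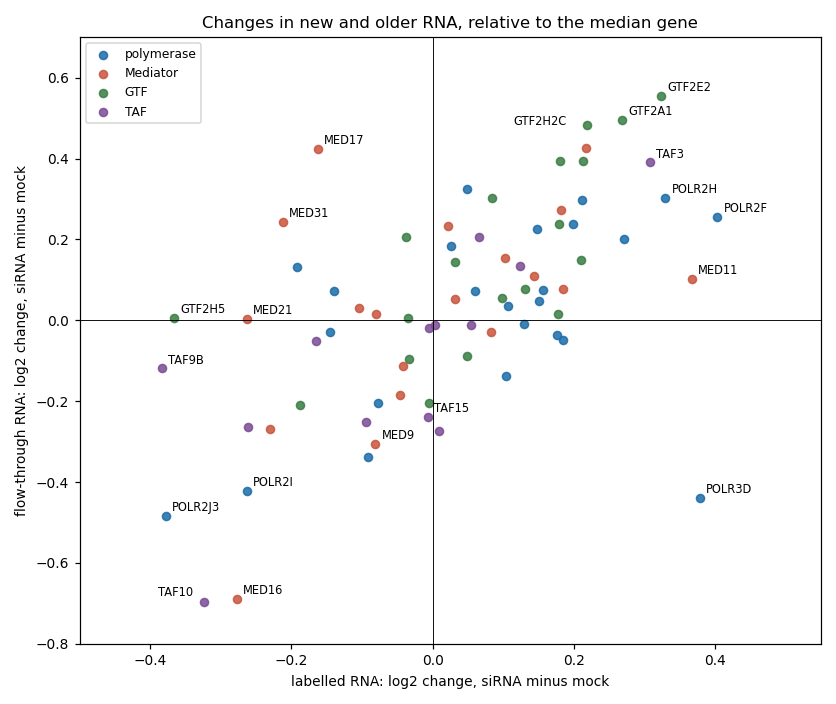
Log2 change (siRNA minus mock, relative to the median gene) in labelled RNA on the x axis and in flow-through RNA on the y axis for the 75 genes, coloured by class. POLR3D lies at the lower right (0.38 and -0.44), and MED17 and MED31 at the upper left.

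Did the 3' untranslated regions (3' UTRs) of these genes share features with the changes? The longest annotated 3' UTR per gene was taken from GENCODE v29, found for all 75 genes. The 7-base sequence TACTGCA was searched for on the transcript strand because an earlier search of the half-life changes in these data had singled it out, so it is no independent evidence. It occurred in 8 of the 75 genes (10.7%) and in 11.7% of the 5664 genes of the table with a 3' UTR. Total or labelled RNA changed in the carriers TAF1B, GTF2H1, GTF2H5, MED28 and POLR3D. The site of POLR3D is not shown here, and those of the other 4 are printed, with TACTGCA in capitals, 5′ to 3′ on the transcript, in GRCh38 coordinates.
TAF1B, chr2:9934063-9934092, plus strand: attgtggaaaaTACTGCAtatatatgtata
GTF2H1, chr11:18366162-18366191, plus strand: aaaagactgttTACTGCAgttgctcaggaa
GTF2H5, chr6:158195538-158195567, plus strand: gcaacaaacacTACTGCAttttatttctga
MED28, chr4:17628900-17628929, plus strand: gataagaggagTACTGCAcacaaggacagt
MED28, chr4:17629238-17629267, plus strand: caaacacacagTACTGCAtcctgggggtgg

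Carriers of the sequence did not share a direction. In total RNA TAF1B fell and GTF2H1 and MED28 rose, and POLR3D, which also carries it, fell. POLR1D, POLR3G and MED13L were the other carriers. The median half-life change was 0.08 over the 8 carriers, of which 3 were below 0, and -0.00 over the other 67 genes. Over all genes it was -0.07 with the sequence and 0.01 without it.

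Base composition of the 3' UTR went with the half-life change. GC content ranged from 21.5% in MED30 to 63.8% in MED16. Of the 37 genes with a GC content under the group's median of 43.7%, 28 had a half-life change over 0 (median 0.12), against 9 of the 38 genes with a higher content (median -0.09). In total RNA the low-GC genes gave 8 risen, both GTF2H2 and GTF2H2C among them, and 3 fallen, and the high-GC genes 0 and 8. The same split was not made over all genes, so these counts have no share to be set against. Spearman's correlation over the 75 genes was -0.48 for half-life and -0.41 for total RNA, and over 5664 genes it was -0.32 and -0.29, so it was also present over all genes. For flow-through RNA it was -0.29 over the 75 genes and -0.32 over all genes, and for labelled RNA 0.13 and -0.07. These are correlations across genes, which share their libraries and are not independent replicates, and the split was chosen after the values were seen. Between columns of replicate 1 the correlation with half-life change was -0.53 and between columns of replicate 2 it was -0.20. For total RNA the same values were -0.22 and -0.49. MED17 and MED31 had GC contents of 38.9% and 40.3% and POLR3D 46.7%. The part of base composition in the changes was not tested.

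**Figure D5:**
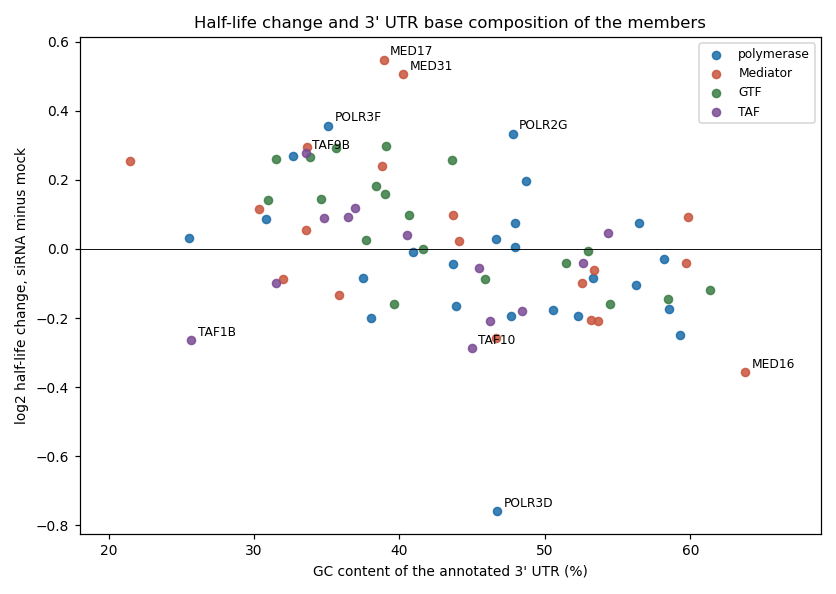
GC content of the annotated 3' UTR in percent (x axis) and log2 half-life change, siRNA minus mock and relative to the median gene (y axis), for the 75 genes, coloured by class. Most genes left of 43.7% lie above 0 and most right of it below 0. MED16 at 63.8% had a change of -0.36.

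Partners of the machinery that lack these gene names were taken from a list of 63 symbols, older and newer names included, of which 43 were tested. In half-life 1 rose and 2 fell (1.88% and 4.27% of all genes). TWISTNB, a polymerase I subunit, was at 711 and 983 min after siRNA and 518 and 537 min in mock (0.47, limma, Benjamini-Hochberg adjusted p = 0.0303). CCNC, the cyclin of the Mediator kinase that MED12 activates, was at 1052 and 1178 min after siRNA and 1438 and 1456 min in mock (-0.57, limma adjusted p = 0.0403). CTR9, a scaffold of the PAF1 elongation complex, was at 301 and 450 min after siRNA and 523 and 624 min in mock (-0.83, limma adjusted p = 0.00913). No alternative setting or left-out column is given here for the calls of TWISTNB, CCNC and CTR9. Without centring, 2 half-lives of all 6064 genes were longer and 5 shorter. In total RNA 8 of the 43 rose and 5 fell (12.9% and 14.3% of all genes). In labelled RNA 11 rose and 3 fell (9.88% and 11.5% of all genes), and in flow-through RNA 20 and 10 (31.7% and 26.8% of all genes). The median half-life change of the 43 genes was -0.05.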

How the data were processed

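The data are 1 deposited table of poly(A)+ RNA from HEK293 cells. Per the labels, libraries of the 3 fractions were made with a TruSeq kit; per the submitters' processing notes, TopHat2 2.06 and hg18 were used. The tool behind the expression signal the authors deposited and its unit are not given in the sources used here. Half-lives were computed by the authors by a published method, per the labels' protocols. Their unit was taken as minutes because a recomputation gave medians of similar size. It assumes first-order decay during the 60 min of labelling and weighs the fractions by total least squares. Recomputed medians were 675 and 743 min in the mock columns, against 742 and 810 as deposited. In the siRNA columns they were 985 and 903 min, against 764 and 1030 as deposited, so the order of those columns differed. The Pearson correlation of log2 values over genes (0.947 to 0.971) does not depend on the unit.

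Values were tested as log2(value + 1) and log2 half-life, centred on the median gene of each column, with limma 3.58.1 in R 4.3.3 (mean-variance trend), 2 siRNA against 2 mock columns, over all 6064 genes past the minimum of 5, with Benjamini-Hochberg adjustment at 0.05. A fold on the log2(value + 1) scale understates the change of low genes. The limma step was tested on simulated data. Genes given in full were those called in half-life, the 3 largest called rises and falls in each fraction, the 3 shortest and 3 longest half-lives in mock and a list of large or catalytic subunits; other genes are named where they were called or where a complex or a 3' UTR feature is described. The members, lists and the 7-base sequence were chosen with earlier results of these data known. The 3' UTR features were added after the data were seen. Alternatives were other expression minimums, pseudocounts, centring, variance settings and half-life measures, a replicate block, and each column left out.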

Additional observations from a re-analysis of the deposited data

How the results depend on the processing

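Of 39 called changes of the genes given in full, 0 changed direction in 408 comparisons with an alternative. Where every column was kept, 233 comparisons kept the call and 19 missed the threshold. With 1 column left out, calls were lost more often, as given for most of these genes above. The flow-through falls of MED12 (-0.19) and MED9 (-0.31), not given above, also lost their calls without single columns. The changes then ranged from -0.24 to -0.13 for MED12 and from -0.41 to -0.20 for MED9. Genes named above but not given in full are not in this tally. Counts of members called depended on the setting. An expression minimum of 20 leaves 43 of the 75 genes. It removes MED17, MED31 and POLR3D, the genes called in half-life, so it could not test those calls. Among the 43 genes left, 0 half-lives were longer and 0 shorter, against 63 and 94 of all 2603 genes. Total RNA was higher for 5 and lower for 3 (353 and 310 of all genes). Labelled RNA was higher for 2 and lower for 5 (252 and 320 of all genes). Flow-through RNA was higher for 14 and lower for 9 (923 and 744 of all genes). Without a minimum 1 half-life was longer (80 of all 7682 genes), and the median mock half-life of TAF genes was 646 min. Without centring 0 half-lives were longer and 0 shorter, against 2 and 5 of all 6064 genes. In total RNA 3 genes rose and 5 fell, against 451 and 686 of all genes. In labelled RNA 27 rose and 0 fell, against 1641 and 333 of all genes. Recomputed half-lives gave 4 longer and 4 shorter, against 482 and 438 of all 6064 genes. Of these members, MED17 and POLR3D were also called from the authors' half-lives. With 1 column left out, 0 to 1 half-lives were longer and 0 to 1 shorter, 1 to 10 genes rose and 5 to 12 fell in total RNA, 3 to 6 rose and 2 to 6 fell in labelled RNA, and 18 to 20 rose and 11 to 15 fell in flow-through RNA. The replicate block, which rests on the column numbers alone, gave 0 longer half-lives and 14 risen genes in total RNA, against 21 and 1124 of all 6064 genes. The correlation of same-numbered deviations over genes was -0.07 for half-life, 0.05 for total RNA, -0.04 for labelled RNA and 0.11 for flow-through RNA. Apart from the missing columns and genes, the cause was not tested. Depth is unknown, so no counting error is given.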

Other observations

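Further genes of the partner list, picked after their values were seen, belong to the PAF1 elongation complex with CTR9. LEO1 rose by 0.77 in labelled RNA (limma, Benjamini-Hochberg adjusted p = 0.000962) and by 0.86 in flow-through RNA. CTR9 had labelled RNA of 11.5 and 11.1 after siRNA and 8.94 and 7.35 in mock (0.30), while its total RNA was 5.86 and 6.42 after siRNA and 10.7 and 10.1 in mock (-0.65). The flow-through change of CTR9 was -0.45. PAF1 had a total RNA change of -0.38 and a labelled change of 0.28, and total RNA of LEO1 rose by 0.29. RTF1, which works with the same complex, passed in none of the measures (total RNA 0.01, labelled RNA 0.23, flow-through RNA 0.19, half-life -0.12). Of the Mediator kinase genes, CCNC total RNA was 27.4 and 27.5 after siRNA and 50.2 and 48.2 in mock (-0.80), whereas CDK8, the kinase it binds, had a total RNA change of 0.40 and a flow-through change of 0.64. All changes given here other than those of RTF1 passed the same test, and no alternative setting is given for them.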
